A study of Caenorhabditis elegans with 2 samples.

Results

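The genes described here are the nuclear hormone receptor genes of Caenorhabditis elegans whose names carry the prefix nhr-, taken as all protein-coding genes so named in the Ensembl annotation of the WBcel235 genome. There were 269 of them among 19973 protein-coding genes, and the other 19704 genes served as the comparison. The values came from chromatin immunoprecipitation sequencing (ChIP-seq) of the ETS-family transcription factor ETS-4, in 2 biological replicates that formed 1 group. Both were late embryos of hermaphrodite stock, collected 5 hours after egg bleaching from strain OP509, whose genotype is unc-119(tm4063) III; wgIs509. The integrated transgene wgIs509 makes ETS-4 with a C-terminal GFP and FLAG tag, and the tagged protein was precipitated with an antibody to GFP. The strain is a single transgenic line, the labels name no promoter for the transgene, and whole embryos were used, so each value is an average over the cells of the embryo. No group without the transgene or under another condition was analysed here, so the comparisons run between genes, and no test between conditions was possible.

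Nuclear hormone receptors are transcription factors with a DNA-binding domain of zinc fingers and, in most members, a domain that can bind a small lipophilic ligand. The worm has far more of them than insects or mammals, and most are thought to descend from a receptor related to vertebrate HNF4 that was copied many times. Many of these copies lie in tandem on chromosome V. A small set has clear counterparts in other animals and acts in moulting, embryonic patterning or neuronal identity, and several HNF4-like members control fat, amino acid and vitamin-dependent metabolism. ETS-4 is known for acting in the worm intestine on lifespan and on lipid genes.

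The sequences at the strongest members show what lay under their summits. Each is the 201 bp centred on the summit of the region, read 5′ to 3′ on the plus strand of the RefSeq WBcel235 genome (ce11), for the 6 strongest members off the exons of protein-coding genes. Capitals mark GAGAGA or CGTCTC read on either strand, except at nhr-255, where they mark a tRNA gene that the window contains.
nhr-142 (V:5790924-5791124): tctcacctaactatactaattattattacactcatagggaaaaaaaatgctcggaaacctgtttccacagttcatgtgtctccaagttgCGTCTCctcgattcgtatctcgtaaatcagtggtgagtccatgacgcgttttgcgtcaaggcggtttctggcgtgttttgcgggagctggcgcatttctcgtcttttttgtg
nhr-48 (X:15707592-15707792): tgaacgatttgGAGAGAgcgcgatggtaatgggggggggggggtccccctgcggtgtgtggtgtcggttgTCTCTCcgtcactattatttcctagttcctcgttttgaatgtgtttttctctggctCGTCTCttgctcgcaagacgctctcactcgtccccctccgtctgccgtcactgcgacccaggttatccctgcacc
nhr-255 (X:15742036-15742236): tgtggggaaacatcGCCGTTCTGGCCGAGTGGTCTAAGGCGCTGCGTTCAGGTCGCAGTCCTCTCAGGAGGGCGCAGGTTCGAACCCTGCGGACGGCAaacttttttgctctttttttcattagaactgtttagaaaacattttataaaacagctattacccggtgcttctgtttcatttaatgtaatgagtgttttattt
nhr-256 (V:1743548-1743748): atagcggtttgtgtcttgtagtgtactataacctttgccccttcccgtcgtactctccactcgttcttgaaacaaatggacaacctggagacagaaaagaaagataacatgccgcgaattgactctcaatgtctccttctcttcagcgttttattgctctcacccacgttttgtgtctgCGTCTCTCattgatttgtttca
nhr-32 (X:13251504-13251704): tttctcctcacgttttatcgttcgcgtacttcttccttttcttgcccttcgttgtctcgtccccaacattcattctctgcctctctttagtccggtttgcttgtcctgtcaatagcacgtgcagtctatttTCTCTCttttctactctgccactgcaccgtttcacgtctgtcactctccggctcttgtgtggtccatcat
nhr-1 (X:17513645-17513845): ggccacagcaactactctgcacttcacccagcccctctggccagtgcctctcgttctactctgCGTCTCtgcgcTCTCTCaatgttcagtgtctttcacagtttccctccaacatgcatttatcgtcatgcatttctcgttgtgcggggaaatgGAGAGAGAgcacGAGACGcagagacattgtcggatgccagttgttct

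Regions were taken from 4 lists in ce11 coordinates. A region was assigned to a gene when its summit lay in a promoter window, which spanned the 1000 bp before and the 200 bp after any start of the gene. Its signal is the peak caller's own value and has no stated scale, so it ranks regions within a list only. The pooled list, made from both replicates and rich in weak regions, held 12348 regions with signals from 24.2 to 1137.1. The IDR list, the part of the pooled list that passed a test of reproducibility between replicates, held 1106 regions with signals of 71.1 or more. Genes with an IDR summit are called strong, genes with a pooled region only are called weak, and the lists of replicates 1 and 2 gave a value for each replicate, the highest in a window of the gene.

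Of the 269 nhr genes, 8 were strong (2.97%, 95% Wilson interval 1.51 to 5.76%), against 1058 of the 19704 other genes (5.37%) and 5.34% of all genes. They were nhr-142, nhr-48, nhr-255, nhr-47, nhr-256, nhr-66, nhr-32 and nhr-1. A further 54 were weak, so that 62 nhr genes (23.0%, 18.4 to 28.4%) had a pooled region, against 26.5% of other genes and 26.5% of all genes. The remaining 207 had none in the pooled list. The intervals cover counting error only, and genes that lie side by side are not independent.

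At the top of the family stood nhr-142, with a pooled signal of 133.5. Its signal was 83.7 in replicate 1 and 50.4 in replicate 2, a ratio of 1.66, the widest gap among the 8. The summit lay 471 bp upstream of nhr-142 and nearer, at 206 bp, to the start of F44E7.9, so the region lay in a shared window. Its window above held 1 CGTCTC and no GAGAGA. This region was number 324 of the 1106 in the IDR list by signal, and its signal exceeded that of 92.8% of all genes with a pooled region.

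The second member, nhr-48, encodes a conserved receptor related to DAF-12 and NHR-8, and its summit stood alone 521 bp upstream. Its pooled signal was 114.6, with 49.3 in replicate 1 and 68.3 in replicate 2. The 201 bp around the summit were 57.2% GC, the highest of the 8, and held 2 GAGAGA and 1 CGTCTC. The third, nhr-255, had a pooled signal of 102.0, with 57.0 in replicate 1 and 48.5 in replicate 2. Its summit, 474 bp upstream of the start, lay beside the tRNA gene ZK678.t1 (X:15742050-15742133), the stretch in capitals above. It held neither GAGAGA nor CGTCTC. Summits within 100 bp of a tRNA gene made up 1 of these 8 regions, and 6.78% of all 1106 IDR regions (1.55% of the pooled regions outside that list). Without such summits the family had 7 strong members.

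The other 5 strong members had signals closer to the edge of the IDR list. The region at nhr-47 (V:5505045-5505448, pooled 84.5, replicate 1 41.7, replicate 2 42.1) had its summit 6 bp upstream of the start. That window was shared with dnj-19, a gene for a DnaJ-domain chaperone, so either gene may be concerned. At nhr-256 the pooled signal was 81.7, with 44.8 in replicate 1 and 48.0 in replicate 2, and the summit lay 123 bp upstream. The region at nhr-66 (IV:8229560-8229963) had 80.5 in the pooled list, 36.1 in replicate 1 and 44.5 in replicate 2. Its receptor partners NHR-49 in the control of lipid genes, and the summit, 185 bp upstream of 1 start, fell in an untranslated exon of another transcript of the gene. At nhr-32 the pooled signal was 74.0, with 35.4 in replicate 1 and 42.2 in replicate 2, and at nhr-1 it was 73.7, with 39.2 in replicate 1 and 45.6 in replicate 2. These last members lay just inside the IDR list and had its lower −log10 q, 2.47 each against 3.29 for the other 6. The nhr-1 window held the densest set of marked words, 26 bases in all.

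**Figure D1:**
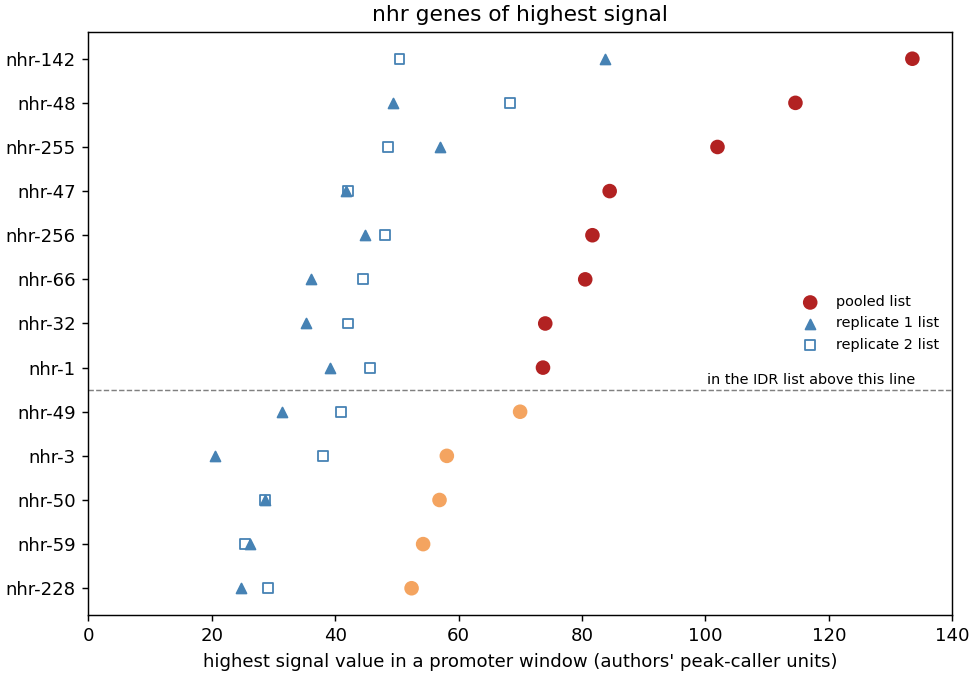
Signal of the 8 strong nhr genes and of the 5 weak ones with the highest signal. The x axis is the highest signal in a promoter window in the authors' peak-caller units, filled circles are the pooled list, triangles replicate 1 and open squares replicate 2. The pooled signals run from 133.5 at nhr-142 to 52.4 at nhr-228, and nhr-49 at 70.0 lies just below the dashed line. At nhr-3 the replicate 1 triangle (20.6) is a region other than the pooled one.

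The strong members had low signals for strong genes. Their median pooled signal was 83.1 (range 73.7 to 133.5), against 111.1 for the 1058 other strong genes (71.1 to 1137.1). The weak members had a median of 31.7, against 32.8 for other weak genes. Over every gene with a pooled region the median was 33.6 for nhr genes and 36.9 for other genes. In the upper 50% of the IDR list by signal only nhr-142 and nhr-48 remained, 2 genes of the family.

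Just outside the IDR list stood nhr-49, the HNF4-like receptor that governs fatty acid oxidation and desaturation. Its pooled signal of 70.0 was close below the list's lowest value of 71.1, and it had 31.5 in replicate 1 and 41.0 in replicate 2, with the summit 281 bp upstream. The next was nhr-3 with 58.1 and a summit 952 bp upstream, where the signal was 18.3 in replicate 1 and 38.1 in replicate 2. A separate region of replicate 1, 404 bp upstream, reached 20.6. These values show that no gap separated strong members from weak ones.

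Then came nhr-50 with 56.9, 28.6 in both replicates, and a summit 31 bp upstream. The gene nhr-59 had 54.3, with 26.2 in replicate 1 and 25.5 in replicate 2, in a window shared with fbxa-137, an F-box gene. Last of the 5 was nhr-228 with 52.4, 24.8 in replicate 1 and 29.1 in replicate 2. In these 3 genes of chromosome V the summit was within 46 bp of a start.

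The family lay on chromosome V above all, and the share of strong genes there was low for nhr and other genes alike. Chromosome V held 167 nhr genes (62.1%), against 24.5% of other genes. Of these 167, 3 were strong (1.80%, 95% Wilson interval 0.61 to 5.15%), against 3.42% of other genes on V. With the share of other genes weighted to the family's spread over the chromosomes, 4.17% would be strong, or 11.2 genes in place of the 8 observed, a difference of -1.19 percentage points. With arms and centres weighted too, the difference was -0.86 points. Both weighted shares lie inside the interval of the family's own share, 1.51 to 5.76%.

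The sign of that difference depended on the replicate. From replicate 2 alone, with its 1106 regions of highest signal, 11 nhr genes were strong (4.09%, against 5.17% of all genes) and the weighted difference was 0.23 points. From replicate 1 alone, 6 were strong (2.23%, against 5.07% of all genes) and the difference was -1.74 points. All 8 members were strong in replicate 2, together with nhr-3, nhr-49 and nhr-58, and nhr-32 and nhr-66 were lost in replicate 1. Where each summit counted only for the gene of nearest start, the difference was -0.30 points. The data therefore gave no direction that held in every setting once chromosome was taken into account.

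For weak regions the family stood close to other genes. Weighted by chromosome, 22.1% of other genes had a pooled region, against 23.0% of nhr genes, a difference of 0.92 points. A region in both replicate lists was present at 37 nhr genes (13.8%), against 18.1% of all genes and 14.7% of other genes by the chromosome weights. In at least 1 of the 4 lists a region was present at 114 nhr genes (42.4%, 36.6 to 48.4%), against 40.7% of all genes. By the chromosome weights 35.6% of other genes had one, below that interval. The difference was 6.74 points. Of the 114 genes, 52 had a region in a replicate list and not in the pooled list, against 2790 of the 8012 other genes with a region in any list. Of the 52, 4 had one in both replicate lists (nhr-121, nhr-60, nhr-65 and nhr-78). Signals of the 52 in the replicate lists ran from 13.2 to 23.2, around list medians of 17.1 in replicate 1 and 16.9 in replicate 2.

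**Figure D2:**
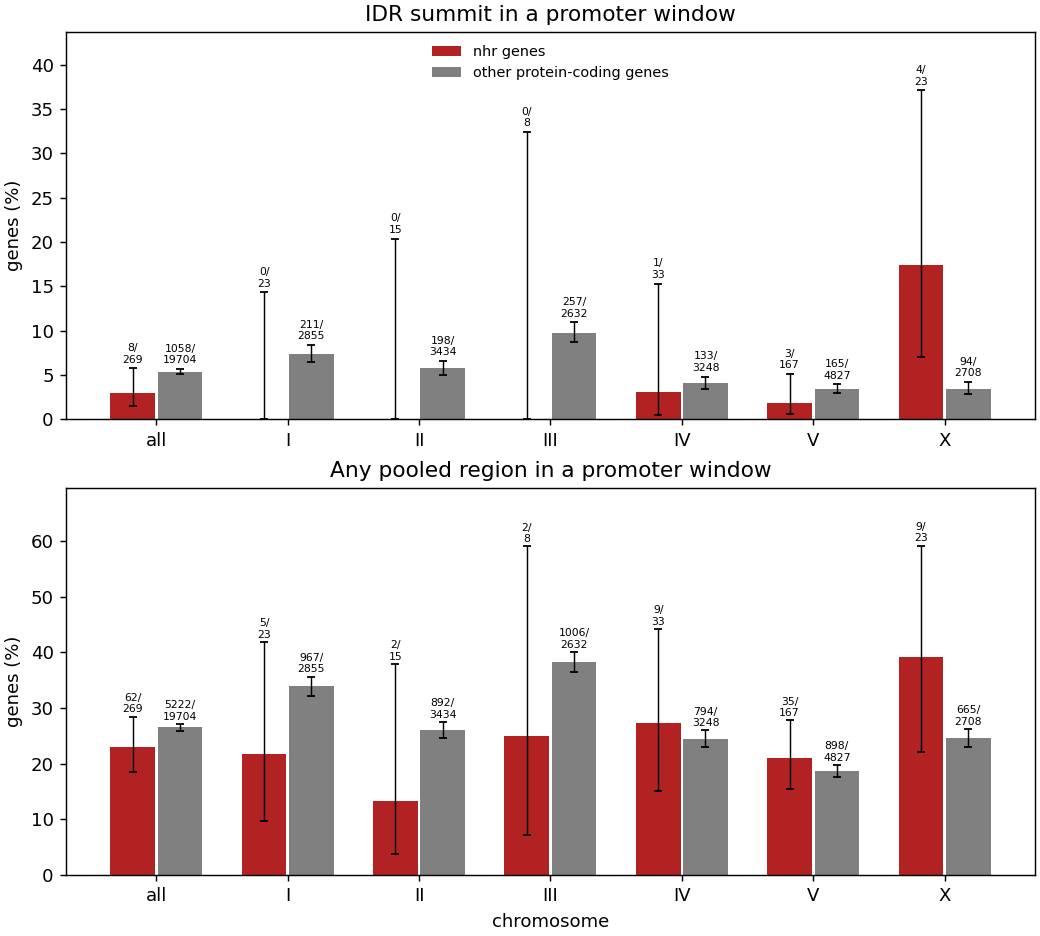
Share of genes with an IDR summit (top) and with any pooled region (bottom) in a promoter window, for all chromosomes and for each one, nhr genes beside other protein-coding genes. The y axes are percent of genes, bars carry 95% Wilson intervals, and the counts stand above. On X, 4 of 23 nhr genes had an IDR summit, and on V, 3 of 167.

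Chromosome X stood apart from the autosomes. It held 23 nhr genes and 4 of the 8 strong ones (nhr-48, nhr-255, nhr-32 and nhr-1), a share of 17.4% (6.98 to 37.1%), against 94 of 2708 other genes on X (3.47%). On the autosomes 4 of 246 nhr genes were strong (1.63%, 0.63 to 4.11%), against 5.67% of other genes. The right arm of X alone held 3 of the 4, among 8 nhr genes there, where 4.01% of other genes were strong. The X interval lay wholly above the share of other genes on X. The autosome interval lay below the 5.67% of other autosomal genes, a share not weighted by chromosome. Of the 246 autosomal nhr genes, 167 were on V, where 3.42% of other genes were strong, a share inside that interval. That share is for V alone, and what part of the autosome contrast follows from the family's spread was not tested. The split between X and the autosomes was picked out after the counts were seen, and the difference was not tested. Without X, the family's weighted difference from other genes was -2.60 points, with weights by chromosome and not by arm or centre.

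Weak members on X were 5 of the 23 nhr genes, against 571 of the 2708 other genes there. They were nhr-3, nhr-28, nhr-40, nhr-25 and nhr-35. With the 4 strong members included, a pooled region was present at 9 of 23 nhr genes on X (39.1%, 22.2 to 59.2%), against 24.6% of other genes there. All 9 were single genes with no other nhr start within 20 kb. The 6 nhr genes of X that lay in clusters (nhr-120, nhr-173, nhr-137, nhr-26, nhr-214 and nhr-272) had no pooled region in a promoter window. An intron of nhr-120 did hold a pooled region of 41.0, 955 bp from its start.

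Chromosomes I, II and III gave no strong member. None of 23 on I was strong, which allows a share of up to 13.0%, against 7.39% of other genes there. For II it was 0 of 15, which allows up to 20%, against 5.77%, and for III 0 of 8, which allows up to 37.5%, against 9.76%. These counts are too small to show a share below that of other genes. On IV 1 of 33 was strong (nhr-66), against 4.09% of other genes.

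**Figure D3:**
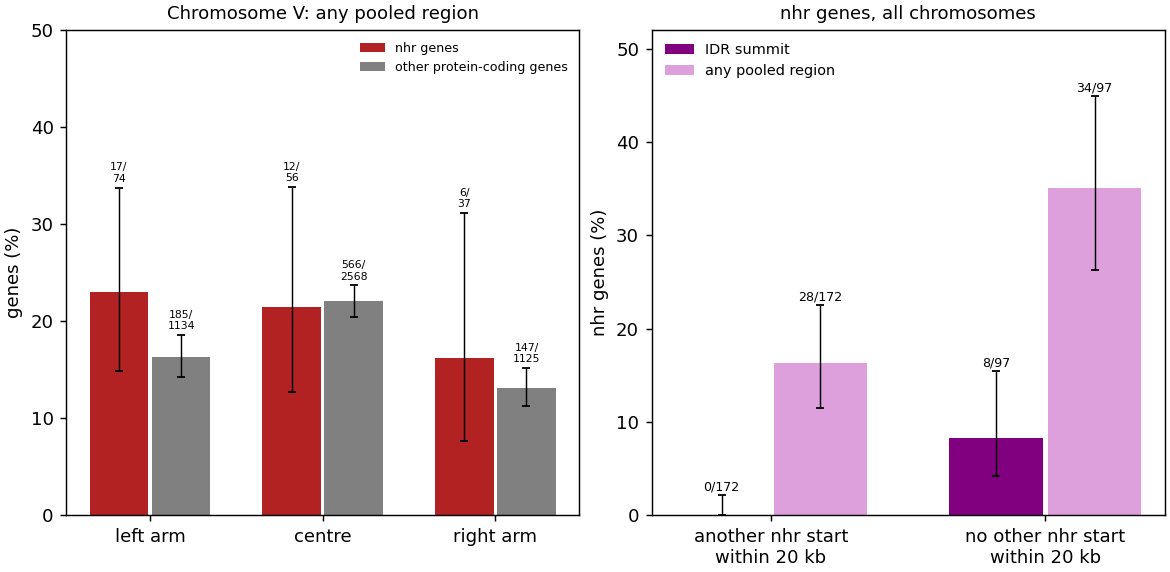
Left, share of genes with a pooled region in the left arm, centre and right arm of chromosome V, for nhr genes and other genes. Right, share of nhr genes with an IDR summit or any pooled region, for genes with another nhr start within 20 kb and for single genes. The y axes are percent of genes with 95% Wilson intervals and counts above. No clustered gene had an IDR summit, against 8 of 97 single genes and 5.34% of all genes.

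The family also lay more in the arms, outside the central 50% of each chromosome, than other genes did. In the arms were 160 of 269 nhr genes (59.5%), against 44.5% of other genes. Of nhr genes in the centres 4 of 109 were strong (3.67%), against 4 of 160 in the arms (2.50%), and of other genes 6.07% in the centres against 4.49% in the arms. The nhr difference of 1.17 points had no fixed sign, since it was -0.47 with the centre set at 60% of the chromosome, -2.35 at 40% and -0.67 in replicate 1 alone.

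Along chromosome V the shares of nhr genes with a pooled region had intervals that overlapped widely. In the left arm 17 of 74 nhr genes had a pooled region (23.0%), against 16.3% of other genes. In the centre it was 12 of 56 (21.4%), against 22.0%, and in the right arm 6 of 37 (16.2%), against 13.1%. Over both arms of V the share was 20.7% of 111 nhr genes (14.2 to 29.2%), against 14.7% of 2259 other genes, a share inside that interval.

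Strong regions were found at genes that stood alone within the family. Joining starts at most 20 kb apart gave 46 clusters with 172 genes, and left 97 single genes. No clustered gene was strong, 0 of 172, which allows a share of up to 1.74%, against 8 of 97 single genes (8.25%, 4.24 to 15.4%). Of all genes 5.34% were strong, above the clustered limit and inside the interval of the single genes. Pooled regions were also less frequent in clusters, at 28 of 172 genes (16.3%, 11.5 to 22.5%), against 34 of 97 single genes (35.1%, 26.3 to 45.0%) and 26.5% of all genes. On chromosome V alone the strong counts were 0 of 128 clustered and 3 of 39 single genes, against 3.42% of other genes on V. The pooled counts there were 23 of 128 (18.0%) and 12 of 39 (30.8%), against 18.6% of other genes on V. With a link of 10 kb the strong counts were 0 of 150 and 8 of 119. With 50 kb they were 2 of 188 (1.06%) and 6 of 81 (7.41%), since nhr-48 and nhr-255 then formed a cluster. No test was made of this split, which was chosen with the counts in view.

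The largest cluster held 12 genes in 42.9 kb of the left arm of V, from nhr-123 to nhr-131, and 4 of them had a weak region. These were nhr-201 (37.2), nhr-98 (26.0), nhr-212 (25.3) and nhr-131 (25.3). The 9-gene cluster that holds nhr-59 and nhr-228 had 3 with a pooled region. A cluster of 8 genes on V, from nhr-51 to nhr-53, had none.

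Clustered and single genes also differed in their surroundings, whose part in the counts was not tested. The median gap from a gene's start to the nearest start of another gene was 2310.5 bp for clustered nhr genes and 4025 bp for single ones. For all nhr genes it was 2660 bp, against 2121 bp for other genes and 817 bp for other strong genes. The nearest IDR summit, in any place, lay a median of 64.0 kb from nhr genes, against 34.6 kb from other genes. On V these medians were 96.1 kb and 53.6 kb, and on X 34.0 kb and 33.0 kb.

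Few of the family's regions were shared with a neighbour. A second gene's window held the summit at 2 of the 8 strong members and at 7 of the 54 weak ones (13.0%). Among other genes this was so for 59.0% of strong and 31.1% of weak ones. A summit between close divergent starts counts for both genes, so a count of genes can exceed the count of regions. Without regions that also lay in a window of a gene outside the family, 6 nhr genes were strong and 56 had a pooled region.

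**Figure D4:**
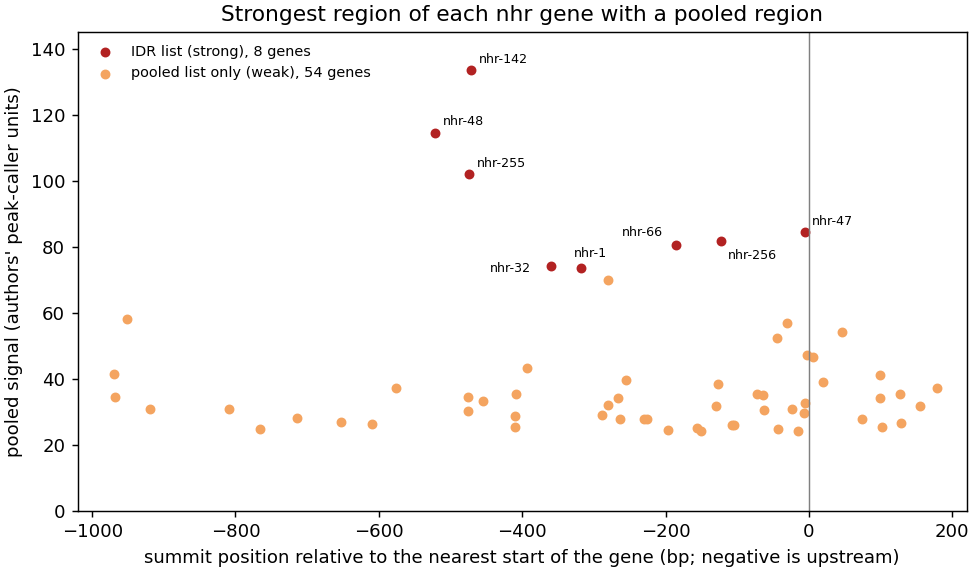
Pooled signal of the region of highest signal of each of the 62 nhr genes with a pooled region, against the position of its summit relative to the nearest start of the gene. The x axis is in bp with upstream negative, the y axis is in the authors' peak-caller units, dark points are strong and light points weak genes. All 8 strong summits lie upstream, from 521 to 6 bp.

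The summits lay mostly upstream of the start. For all 8 strong members they were upstream, with a median distance of 339 bp, against 247.5 bp for other strong genes, of which 1014 of 1058 had an upstream summit. For weak members 43 of 54 were upstream and 29 (53.7%) were within 200 bp, against 43.0% of other weak genes. The family's windows held 8 strong regions and 61 weak ones, the latter being all their pooled regions outside the IDR list. The 61 include second regions of some genes, among them the strong members nhr-66 and nhr-1. The neighbours nhr-107 and nhr-42 shared 1 weak region.

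Strong regions were also found inside the family's genes, outside the promoter windows. The highest of all lay in an intron of nhr-3 at X:14560381, 1877 bp from its nearest start, with a pooled signal of 208.1, 121.9 in replicate 1 and 90.2 in replicate 2. It was number 105 of the IDR list and exceeded every promoter region of the family. An intron of nhr-17 held a region of 135.0 (71.5 in replicate 1, 62.0 in replicate 2) at X:12665235, beside the tRNA gene C02B4.t2 and nearest to the start of nlp-76. The others were in introns of nhr-21 (81.9 at II:7343949, 47.1 in replicate 1 and 33.9 in replicate 2) and nhr-46 (74.8 at IV:5754215, 31.7 in replicate 1 and 52.9 in replicate 2). With gene bodies included, 12 nhr genes (4.46%, 2.57 to 7.63%) had an IDR summit, against 6.03% of all genes, and 92 (34.2%) had a pooled region, against 37.3%. Of these 4, nhr-3 and nhr-17 were on X.

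Of 11 receptors with counterparts in other animals, 1 was strong (nhr-48), 4 were weak and 6 had no pooled region. That is 9.09% strong and 45.5% with a pooled region, against 5.34% and 26.5% of all genes, in a list too small to set apart from them. The weak ones were nhr-41, the TR2/TR4 counterpart (41.2, with 32.0 in replicate 1 and none in replicate 2), nhr-25, the Ftz-F1 counterpart that acts in epidermis and moulting (31.6), nhr-23, the ROR counterpart that drives moulting (24.9), and nhr-6, the NR4A counterpart (24.2). These values are for promoter windows. Outside them, an intron of nhr-23 held a pooled region of 57.5, 595 bp from a start, with 21.8 in replicate 1 and 29.6 in replicate 2. Those without a pooled region in a promoter window were nhr-8, nhr-67 (tailless), nhr-85 (E75), nhr-91 (GCNF), nhr-111 and nhr-239. Of these, nhr-8 and nhr-85 had a region in replicate 2 alone, with signals of 17.4 and 13.8. The lists of genes overlap, and the names were chosen from textbook knowledge with results of these data known.

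Of 16 receptors linked to metabolism, 1 was strong (nhr-66), 8 were weak and 7 had no pooled region. The strong share was 6.25%, against 5.34% of all genes. After nhr-49, already described, came nhr-68, which switches on the propionate shunt (43.2, with 20.3 in replicate 1 and 19.9 in replicate 2), in a window shared with H12C20.7. The gene nhr-64 had 39.0, with 21.3 in replicate 1 and 25.0 in replicate 2. The gene nhr-114, which protects the germ line on diets poor in vitamin B12, had 37.1, with 30.9 in replicate 1 and no region in replicate 2. None of these 3 came as near to the lowest IDR signal as nhr-49 did.

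Further weak metabolic members were nhr-28 (35.5, with 21.8 in replicate 1 and none in replicate 2), nhr-86, a receptor in detoxification and immunity (35.4, with 14.1 in replicate 1 and 16.0 in replicate 2), and nhr-80, a partner of NHR-49 in fatty acid desaturation (35.0, with 20.4 in replicate 1 and 18.5 in replicate 2). The last weak one was nhr-62 (24.2). As a share, 9 of the 16 had a pooled region (56.3%), with a median signal of 37.1, against 26.5% of all genes and a median of 36.8. In both replicate lists 6 of the 16 had a region, against 18.1% of all genes. The list is small and was not tested.

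Of 9 receptors known from development, none was strong, 4 were weak and 5 had no pooled region. The 4 make 44.4% with a pooled region, against 26.5% of all genes, and at 5.34% of all genes a count of 0 strong among 9 says little. The highest was nhr-40, needed for embryonic and muscle development, with 34.4 in the pooled list, 21.8 in replicate 1 and 17.9 in replicate 2. The others with a region, nhr-25, nhr-23 and nhr-6, are given above. Of the 5 nuclear receptor genes without the prefix, daf-12, which controls entry into the dauer larva, had a pooled signal of 32.7 with 18.6 in replicate 1 and 22.8 in replicate 2. The gene sex-1, part of the count of X chromosomes in sex determination, had 32.7 with 15.3 in replicate 2 and none in replicate 1. No pooled region was found in a promoter window of fax-1, odr-7 or unc-55, which act in the identity of neurons.

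Strong genes passed a test of reproducibility between the replicates, so a region in both replicate lists largely follows from the definition. All 8 strong members had one, as did 99.8% of other strong genes. Of the 54 weak members 25 did (46.3%), against 55.3% of other weak genes. Another 25 had a region in 1 list and 4 (nhr-186, nhr-110, nhr-100 and nhr-6) in neither. Over the 33 nhr genes with a pooled region and a region in both lists, the 2 signals correlated with a Pearson r of 0.84 on the log2 scale (Spearman rho 0.78). Over all 3391 such genes r was 0.82 and rho 0.72. These correlations are across genes and share the selection by the pooled list, and the highest region of a replicate need not be the pooled one, as at nhr-3, nhr-208 and nhr-79. Of the 33, 29 differed by less than 1.5-fold, against 74.2% of all such genes. The exception among the strong members was nhr-142.

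The words GAGAGA and CGTCTC, which were searched on both strands within 100 bp of each summit, were present at 6 and 4 of the 8 strong regions. GAGAGA was at nhr-48, nhr-256, nhr-32 and nhr-1, as capitals show above, and at nhr-47 and nhr-66. CGTCTC was at nhr-142, nhr-48, nhr-256 and nhr-1. Over all IDR regions with a promoter summit the shares were 32.8% for GAGAGA and 24.4% for CGTCTC. At the 61 weak regions they were 29.5% and 14.8%, against 24.7% and 15.5% of all pooled promoter regions outside the IDR list. Both words overlap where they stand together, as in CGTCTCTC at nhr-256. The ETS site CCGGAA was at 0 of the 8 strong regions, against 5.90% of IDR promoter regions, and at 1 of the 61 weak ones, against 6.69% of promoter regions outside the IDR list. The nuclear receptor site AGGTCA was at 0 of 8, against 3.67%, and at 4 of 61, against 4.87%. The core GGAA was at 7 of the 8, against 81.5% of IDR promoter regions. A match is a run of letters and does not show a binding site.

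The median GC content of the strong windows was 47.8%, against 42.8% for all IDR promoter regions, and that of the weak windows was 37.8%, against 38.8% for all pooled promoter regions outside the IDR list. In the 300 bp around starts, 250 bp upstream and 50 bp downstream, GAGAGA was present at 83 of 269 nhr genes (30.9%), against 21.7% of other genes and 21.8% of all genes. It was at 5 of 8 strong, 22 of 54 weak (40.7%) and 56 of 207 nhr genes without a region (27.1%), against 25.2%, 28.3% and 19.5% of other genes. The share was thus above that of other genes in each of the 3 classes, and the difference was not tested. CGTCTC was at 16.4% of nhr starts, against 11.1% of other genes. By class it was at 1 of 8 strong (12.5%), 13 of 54 weak (24.1%) and 30 of 207 nhr genes without a region (14.5%). The shares of other genes were 17.1%, 14.5% and 9.67%, so the strong class went the other way, on a count of 1. Median GC content of these 300 bp was 34.3% in both sets.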

How the data were processed

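Genes, starts and transcript types came from Ensembl release 115 (WBcel235), and sequence from the RefSeq genome of the same build. The signal of each region is column 7 of the narrowPeak lists as the authors deposited them, and column 9 holds the deposited −log10 q. By the deposited readme texts, alignments of 1 replicate and a control gave a replicate list, those of both gave the pooled list, and the IDR list was derived from these 3. Aligner, peak caller and IDR threshold were not given in the sources used here. The lists hold no read counts, and library depth is therefore unknown.

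Per gene, the region of highest signal with its summit in any promoter window was taken (Python 3.11.15, pandas 2.3.3, SciPy 1.17.1). Each IDR region was in the pooled list. Arms are the parts of a chromosome outside its central 50%, by the midpoint of the gene. Other genes' shares were weighted by the number of nhr genes per chromosome. Intervals are 95% Wilson intervals, and the limit beside a count of 0 takes 3 counts of the total. No test of chance was run on the members. The step that assigns summits and a separate copy of the weighting by chromosome were checked on simulated data. The weighting by arm or centre was not checked in this way. With 2 replicates in 1 group, no p-value was computed. The ce10 lists were not used.

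The text names all nhr genes with an IDR summit and the 5 of highest pooled signal without one. It also names members of the lists of conserved, metabolic and developmental receptors. Values are given for those above the median pooled signal of nhr genes with a region (33.6), and some lower ones were added after their values were seen. The 5 nuclear receptor genes without the prefix are named as well. The members, the lists and the splits by X and by cluster were chosen with earlier results of these data known. Alternatives were other windows, starts, chromosomes, centres, the upper 50% of each list and each replicate alone. Settings without X, without summits near tRNA genes and without shared windows were added after the data were seen.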

Additional observations from a re-analysis of the deposited data

How the results depend on the processing

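The number of strong nhr genes was 8 and ran from 6 to 11 over the 2 replicates taken alone. It was 2 in the upper 50% of the IDR list and 4 without chromosome X (chosen after seeing the data). In the other settings it lay between 6 and 9. The difference from the chromosome-weighted share of other genes was -1.19 points. It ran from -1.74 to 0.23 over single replicates, so it reversed with replicate 1 left out, and the cause was not tested. In the other settings it was negative, from -2.60 without X to -0.30 with the nearest start only. The number with a pooled region was 62, fell to 36 in the upper 50% of that list and lay between 49 and 79 in the other settings, 62 and 63 over single replicates. Only 41 of those 62 in replicate 2 and 43 of the 63 in replicate 1 were among the pooled list's 62, so the weak genes depended on the replicate. The difference between centres and arms was 1.17 points and reversed to -2.35 with a central 40%, to -0.47 with a central 60%, and over single replicates ran from -0.67 to 0.84, the cause of which was not tested. The median pooled signal of strong members was 83.1, and it was 124.05 in the upper 50%. For the genes strong in a single replicate the median, still of their pooled signals, was 93.2 for replicate 1 and 80.5 for replicate 2. No paired analysis was possible because the design holds 1 group. Depth is unknown and each chromosome but V holds at most 33 nhr genes, so shares on single chromosomes have wide intervals.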
